A study of Mus musculus with 6 samples.

Results

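Endoplasmic reticulum (ER)-associated degradation removes proteins that fail to fold in the ER by drawing them back into the cytosol, where they are ubiquitinated and handed to the proteasome. Messenger RNA of 10 genes of this machinery, chosen by name, was followed among the 54532 genes of one RNA sequencing table: the mannosidase-like Edem1, Edem2 and Edem3, the lectin gene Os9, the channel and ligase genes Sel1l, Syvn1, Derl1, Derl2 and Derl3, and the scaffold gene Herpud1. All 10 were found in the table and all 10 passed the filter on low counts. The samples were bone marrow-derived macrophages, which are macrophages grown in culture from marrow precursors, of C57BL/6 mice aged 32 to 34 weeks. The control group, XWT, carried the Xbp1FL/FL genotype, in which Xbp1 is flanked by recombination sites. The other group, XKO, carried the genotype written Xbp1ΔMf, a deletion in macrophages whose Cre driver the labels do not name. All samples had lipopolysaccharide priming followed by 48 h in medium that wild-type primary hepatocytes had conditioned, so no group lacks either exposure. Each group had 3 libraries, and whether these are separate animals or cultures is not stated in the labels, so the spread behind each p-value may be only technical.

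Misfolded glycoproteins are marked for disposal when mannose residues are trimmed from their glycans, a step in which the EDEM proteins take part, and the lectin OS9 brings them to SEL1L. SEL1L holds the ubiquitin ligase SYVN1, also called HRD1, and the derlins form part of the membrane passage, while HERPUD1 ties the complex together and is itself short-lived. XBP1, made active when the ER stress sensor IRE1 splices its RNA, controls genes of the unfolded protein response, and many genes of this machinery are known as its targets in other cells. The comparison of XKO with XWT asks which of them differed in level between the Xbp1 genotypes in these samples.

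The regions upstream of the transcription start are shown for 3 of the genes because they hold the ER stress response elements, ERSE and ERSE-II, to which the factors of the unfolded protein response are known to bind. ERSE was searched as CCAAT and CCACG with any 9 bases between them, and ERSE-II as ATTGG and CCACG with any 1 base between them, on both strands in the 250 bases before each start (RefSeq, GRCm38.p6), and capitals mark the matches.
Herpud1 (chr8:94386179-94386428, plus strand): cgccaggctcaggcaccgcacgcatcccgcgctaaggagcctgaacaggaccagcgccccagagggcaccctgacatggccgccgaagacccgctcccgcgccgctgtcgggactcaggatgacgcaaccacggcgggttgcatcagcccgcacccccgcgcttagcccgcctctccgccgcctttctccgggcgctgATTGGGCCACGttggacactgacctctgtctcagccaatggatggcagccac
Syvn1 (chr19:6046326-6046575, plus strand): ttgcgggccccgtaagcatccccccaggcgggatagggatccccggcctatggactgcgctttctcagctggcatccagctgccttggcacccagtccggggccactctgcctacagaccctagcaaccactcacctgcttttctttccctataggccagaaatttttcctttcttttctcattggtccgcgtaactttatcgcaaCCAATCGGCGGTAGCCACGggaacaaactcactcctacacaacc
Derl3 (chr10:75893148-75893397, plus strand): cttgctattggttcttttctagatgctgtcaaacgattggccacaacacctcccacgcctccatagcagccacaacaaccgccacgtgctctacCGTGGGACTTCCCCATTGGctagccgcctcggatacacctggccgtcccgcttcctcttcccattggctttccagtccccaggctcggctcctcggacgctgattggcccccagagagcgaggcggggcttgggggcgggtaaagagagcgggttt
The ERSE-II match of Herpud1 lay 52 to 42 bases before the start. The ERSE match of Syvn1 lay 44 to 26 bases before the start, and that of Derl3, on the opposite strand, 156 to 138 bases before it. Such letters are rare: ERSE-II was found in 10 of 32851 promoter windows (0.0304%) and ERSE in 37 (0.113%). Of the 9 members with a RefSeq window (all but Derl1), 1 held ERSE-II and 2 held ERSE. The 8-base core of the unfolded protein response element, TGACGTGG, was in 0 of the 9 and in 0.563% of all windows. The 5 letters CCACG, which is part of ERSE and ERSE-II, was in 8 of the 9 members, against 28.3% of all windows, and CCAAT, which ERSE contains and whose reverse complement opens ERSE-II, was in the same number, against 33.8%. For both short motifs the gene without a match was Edem2. Derl2 has 2 windows and counts as matched if either held the letters. These matches describe the sequence and do not show binding.

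Total counts lay between 28354866 and 30891729 reads per library. The libraries did not vary equally. On the first principal component XWT 3 (-18.2) stood apart from XWT 1 (-36.9) and XWT 2 (-38.6), while XKO libraries had scores of 29.2 to 33.8. Counts of paired libraries within a group were also compared by chi-square per gene, allowing for depth. It was 19.3 to 21.7 for XWT pairs, with or without XWT 3, and 2.80 to 4.54 for XKO pairs. The test used below assumes the same spread of a gene in both groups. All 15 listed macrophage markers were detected and tested (Adgre1 6614 CPM in XWT and 5750 CPM in XKO, where CPM is the read count relative to the TMM-scaled library size), with 6 called lower in XKO and 0 higher, and 8 of 10 hepatocyte markers, albumin among them, had no count. The targeted gene was checked first. Xbp1 (ENSMUSG00000020484, chromosome 11 from 5520659 to 5525893) stood at 159, 157 and 132 CPM in XWT 1 to 3, and 76.8, 79.4 and 76.5 CPM in XKO 1 to 3, a log2 fold change of -0.94 ± 0.077 (SE; adjusted p = 1.93e-06 in the quasi-likelihood test of edgeR). Reads outside any deleted part are counted too, which makes this a partial check of the labels.

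Herpud1 was lower in XKO, and the 9 other members were not called. Across all 14333 genes tested, 7.99% were called lower and 6.00% higher in XKO, 14.0% in all, at an adjusted p under 0.05; among the 10 members 1 was lower and 0 were higher, so the share called, 10%, is near that of all genes. Counted at an unadjusted p under 0.05, 2 of the 10 members were lower (Herpud1 and Derl1) and 0 higher. Among all 14333 tested genes, 2333 were lower and 2076 higher at that threshold, 30.8% in either direction. The median log2 fold change of the members was -0.05, beside 0.00 for all tested genes, and it was 0.02 and 0.07 when libraries were scaled by size alone, so the median has no fixed sign. That scaling also turns the split of all calls, from 42.9% higher to 60.7% higher.

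Herpud1 (ENSMUSG00000031770, chromosome 8 from 94386438 to 94395377, plus strand) encodes a ubiquitin-like membrane protein of the HRD1 complex and is a well-known early gene of the unfolded protein response. Its level was 80.6, 76.8 and 65.3 CPM in XWT 1 to 3, with 45.8, 47.7 and 48.5 CPM in XKO 1 to 3. All 3 XKO libraries lay below all 3 XWT libraries, and the XWT library nearest to them was XWT 3. This library had the lowest Xbp1 of its group and also lay nearest to XKO on the first principal component. A link between its Xbp1 and Herpud1 levels was not tested. The group means were 74.2 ± 7.95 and 47.3 ± 1.40 CPM (SD, n = 3 each). The log2 fold change was -0.65 ± 0.081 (SE; 95% interval -0.82 to -0.47), so the level was 1.57-fold lower (edgeR, adjusted p = 0.000128). This ranks Herpud1 170th by p among the 1145 genes called lower. The authors' deposited table gives a log2 fold change of -0.66 for it. The call held in each of 16 alternative settings, with log2 fold changes from -0.73 to -0.58. Among these settings, 2 were the same fit read at another threshold, where the adjusted p above already fixed the outcome.

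**Figure D1:**
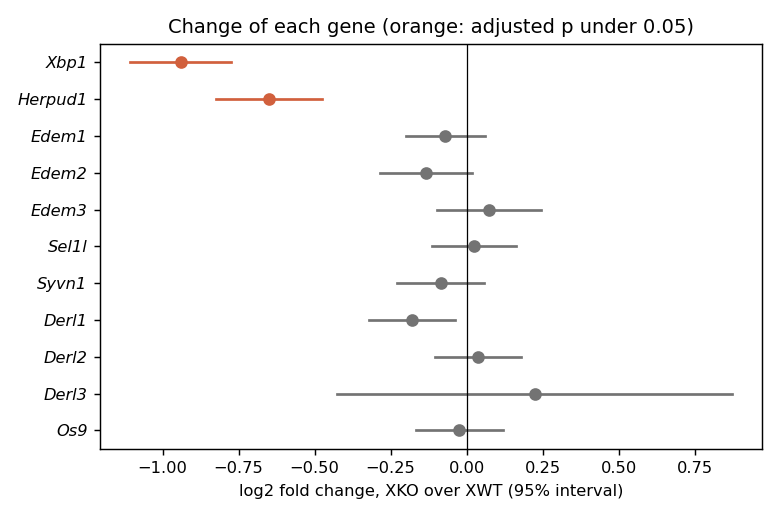
Log2 fold change of XKO over XWT (x axis) for Xbp1 and the 10 degradation genes (y axis); points are edgeR estimates from 3 libraries a group and lines their 95% intervals. Herpud1, at -0.65, is the only one of the 10 in orange, the colour for an adjusted p under 0.05, and its interval lies below those of the 9 others.

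Markers of macrophages and of other cells moved between the same groups as Herpud1. The 15 macrophage markers summed to 44317 to 52660 CPM in XWT and 28672 to 30550 CPM in XKO. Lyz2 was the largest part of that sum, with means of 31140 CPM in XWT and 14274 CPM in XKO, so the sum mostly follows this gene. The 6 called lower were Lyz2 (-1.13 on the log2 scale), Mrc1 (-1.27), C1qa, C1qb, C1qc and Aif1, and the 9 others were not called. Fibroblast and stromal markers summed to 821 to 923 CPM in XWT and 74.3 to 91.7 CPM in XKO, with 14 of 14 tested members called lower and 2 of the 16 listed, Lum and Thy1, under 1 CPM. Neutrophil markers summed to 30.9 to 39.9 CPM in XWT and 61.7 to 65.3 CPM in XKO, with 7 of 8 tested called higher. B and plasma cell markers summed to 233 to 250 CPM in XWT and 269 to 291 CPM in XKO. Of 3 tested, 1 was called higher and 1 lower, and 7 of the 10 listed were under 1 CPM. Hepatocyte markers summed to 73.5 to 86.2 CPM in XWT and 90.9 to 97.9 CPM in XKO. Of 2 tested, 1 was called higher, and 9 of the 10 listed were under 1 CPM, so nearly all of this sum came from 1 gene. The part of any of these in the fall of Herpud1 was not tested, and in bulk RNA fewer cells of a type and less RNA per cell cannot be told apart.

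Because a ratio within 1 library does not depend on the scaling between libraries, Herpud1 reads were also set against the reads of each other member in the same library. Per 1000 Sel1l reads, XWT 1 to 3 had 324, 338 and 288 Herpud1 reads, and XKO 1 to 3 had 191, 202 and 202. Per 1000 Edem1 reads there were 240, 235 and 202 in XWT and 146, 152 and 155 in XKO. The XKO libraries were below the XWT libraries for each of the 9 partners, and the difference in the log2 ratio ranged from -0.89 (Derl3) to -0.47 (Derl1). The 9 ratios share the same Herpud1 reads, and Herpud1 was already the only member called, so they are not independent checks of its fall. Each ratio gave p = 0.10 in a two-sided exact permutation test (adjusted p = 0.10 over the 9), the smallest that 3 against 3 libraries can give. On the FPKM scale, per gene length, Herpud1 made up 8.94% to 10.8% of the summed level of the 10 genes in XWT and 6.69% to 6.88% in XKO.

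**Figure D2:**
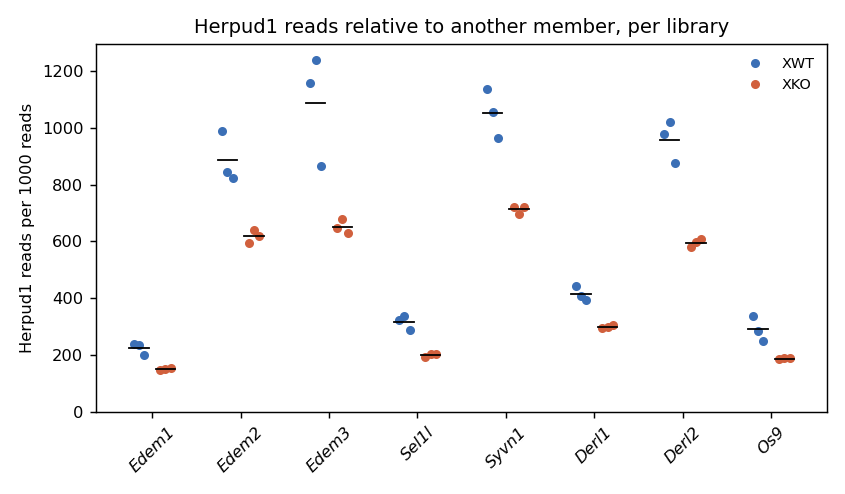
Herpud1 reads per 1000 reads of another member (y axis, from 0) in each library, for 8 partners (x axis; Derl3, with few reads, is left out); dots are libraries and black bars group means. XKO dots lie below XWT dots for every partner shown, for example 191 to 202 against 288 to 338 for Sel1l.

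SEL1L and SYVN1 form the core of the ligase complex, and neither transcript was called. Sel1l (ENSMUSG00000020964, chromosome 12 from 91806043 to 91849157) stood at 249, 227 and 227 CPM in XWT 1 to 3, and 239, 236 and 240 CPM in XKO 1 to 3. The groups overlapped, and the log2 fold change was 0.03 ± 0.064 (SE; 95% interval -0.11 to 0.16; edgeR adjusted p = 0.82). Syvn1 (ENSMUSG00000024807, chromosome 19 from 6046576 to 6053712), the ligase gene whose ERSE match is printed above, stood at 70.8, 72.9 and 67.7 CPM in XWT and at 63.4, 68.5 and 67.3 CPM in XKO. XKO 2 lay above the lowest XWT library, so the groups overlapped. Its log2 fold change was -0.09 ± 0.066 (95% interval -0.23 to 0.06; edgeR adjusted p = 0.41). The end of Syvn1 shares exon bases with Mrpl49 on the other strand, and the sources used here do not give the counting strand, so a part of its reads cannot be assigned.

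The derlins are multi-spanning membrane proteins that accompany substrates out of the ER. Derl1 (ENSMUSG00000022365, chromosome 15 from 57869502 to 57892448) stood at 182, 189 and 167 CPM in XWT 1 to 3, and 156, 160 and 158 CPM in XKO 1 to 3. The groups did not overlap, but the change of -0.18 ± 0.066 on the log2 scale (95% interval -0.32 to -0.04) missed the threshold (edgeR adjusted p = 0.0843; unadjusted p = 0.0166). Without XWT 3 it was -0.23 and called (edgeR adjusted p = 0.00867), and limma-voom with sample quality weights also called it (adjusted p = 0.0424). With library size alone it shrank to -0.11 (edgeR adjusted p = 0.20). Leaving out any other single library gave no call (edgeR adjusted p from 0.13 to 0.27). Derl1 is the member nearest to a call after Herpud1, but not a stable one. Derl2 (ENSMUSG00000018442, chromosome 11 from 71007164 to 71019841) stood at 82.4, 75.4 and 74.6 CPM in XWT and at 79.0, 79.8 and 79.6 CPM in XKO, inside the XWT range. Its log2 fold change was 0.04 ± 0.065 (edgeR adjusted p = 0.73), and its 5′ end shares exon bases with Mis12 on the other strand. Derl3 (ENSMUSG00000009092, chromosome 10 from 75893413 to 75895941), known best from secretory cells such as plasma cells, had only 20 to 33 reads per library. Its levels were 0.85, 0.67 and 1.02 CPM in XWT and 0.90, 1.01 and 1.08 CPM in XKO, and the 95% interval of its log2 fold change, -0.43 to 0.87, is the widest of the 10 (edgeR adjusted p = 0.65). It leaves a fall of the size of Herpud1's outside and does not fix the sign of a smaller change.

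Edem1, Edem2 and Edem3 encode mannosidase-family proteins of glycan trimming, and Edem1 in particular is known as an XBP1 target. Edem1 (ENSMUSG00000030104, chromosome 6 from 108828641 to 108859356) stood at 336, 327 and 324 CPM in XWT 1 to 3, and 314, 314 and 313 CPM in XKO 1 to 3. The groups did not overlap, yet the distance was small, -0.07 ± 0.060 on the log2 scale (95% interval -0.20 to 0.06; edgeR adjusted p = 0.46), and with library size alone it shrank to -0.00077. Edem2 (ENSMUSG00000038312, chromosome 2 from 155701677 to 155729475) stood at 81.5, 91.1 and 79.4 CPM in XWT and at 76.8, 74.5 and 78.4 CPM in XKO. These groups also did not overlap, with XWT 3 and XKO 3 about 1 CPM apart, and the log2 fold change was -0.13 ± 0.070 (95% interval -0.28 to 0.02; edgeR adjusted p = 0.21). Edem3 (ENSMUSG00000043019, chromosome 1 from 151755371 to 151822051) stood at 69.5, 61.9 and 75.5 CPM in XWT and at 70.7, 70.1 and 77.1 CPM in XKO, which overlap. Its log2 fold change was 0.07 ± 0.080 (95% interval -0.10 to 0.25; edgeR adjusted p = 0.56).

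Os9 (ENSMUSG00000040462, chromosome 10 from 127095650 to 127121131), the lectin gene, stood at 239, 268 and 262 CPM in XWT 1 to 3, and 246, 254 and 258 CPM in XKO 1 to 3. The XKO values lay inside the XWT range, and the log2 fold change was -0.02 ± 0.066 (95% interval -0.17 to 0.12; edgeR adjusted p = 0.84). Apart from Herpud1 and the sparse Derl3, the intervals of the 8 members together spanned -20.0% to 18.6% of the XWT level, whereas that of Herpud1 spanned -43.5% to -28.0%. In 4 of the 10 members the groups did not overlap, all with XKO below (Herpud1, Derl1, Edem1 and Edem2), beside 36.2% of all tested genes in either direction and 18.6% with XKO below.

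The machinery was expressed at very unequal levels per gene length. On the FPKM scale (reads scaled by gene length and library total, as deposited) Os9 led with 97.4 ± 5.80 in XWT and 95.5 ± 2.31 in XKO (SD, n = 3 each). Derl1 (53.7 ± 3.69) and Edem1 (50.9 ± 1.12) came next in XWT, and their libraries overlapped. Herpud1 (31.8 ± 3.56), Sel1l (27.3 ± 1.55) and Edem2 (24.2 ± 1.91) formed the middle, with neighbouring libraries that overlapped. Syvn1 (14.7 ± 0.63), Edem3 (10.8 ± 1.00) and Derl2 (9.60 ± 0.56) were lower, the last 2 overlapping, and Derl3 (0.43 ± 0.085) was last. In XKO, Herpud1 (20.2 ± 0.59 FPKM) moved from the 4th to the 6th place, below Sel1l (27.7 ± 0.26) and Edem2 (22.0 ± 0.55), whose libraries did not overlap with it. Edem1 and Derl1 also exchanged their places, at 48.3 ± 0.14 and 47.2 ± 0.66 FPKM.

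**Figure D3:**
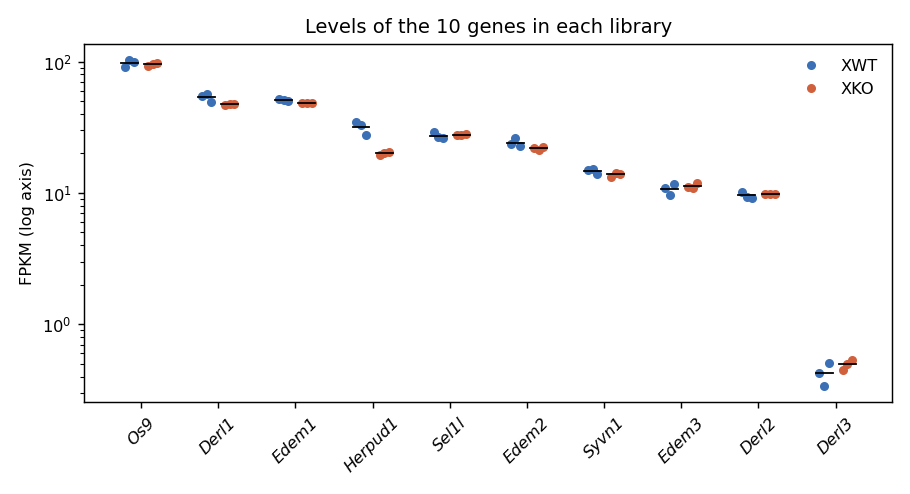
FPKM (y axis, log scale) of the 10 genes (x axis, ordered by their XWT mean) in each library; dots are the 3 libraries a group and black bars the group means. Os9 is highest near 97.4 FPKM and Derl3 lowest near 0.43 FPKM, and the gap between the groups is widest for Herpud1 (31.8 against 20.2 FPKM).

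A wider list of 76 other genes of the pathway, covering ubiquitin-conjugating enzymes, further ligases, the p97 complex, glycan-processing enzymes and deubiquitinases, was read beside the 10. Of 71 that were tested, 6 were called lower and 1 higher (8.45% and 1.41%, beside 7.99% and 6.00% of all genes), with a median log2 fold change of -0.08, or -0.01 with library size alone. Dnajb9, a co-chaperone that delivers substrates to degradation and a known XBP1 target, fell from 42.3 ± 5.41 to 29.8 ± 1.38 CPM (SD, n = 3 each), by 0.50 on the log2 scale (SE 0.092; edgeR adjusted p = 0.00265). It was called in every setting tried. Txndc11, a thioredoxin-like protein known to work with EDEM proteins, fell by 0.33, and the mannosidase genes Man1a and Man1c1 fell by 0.32 and 0.30 on the log2 scale (edgeR adjusted p = 0.00762, 0.0101 and 0.0143). Selenok, a selenoprotein of the ER membrane, fell by 0.22 and Ubac2, which encodes an ER membrane protein, by 0.25 (edgeR adjusted p = 0.0357 and 0.0359), and neither was called with library size alone. Yod1, a deubiquitinase gene, rose from 9.83 ± 1.30 to 14.3 ± 1.21 CPM (SD, n = 3 each), by 0.54 on the log2 scale (edgeR adjusted p = 0.00936). The 6 lower genes became 1 without XKO 1 or XKO 2, 3 without XKO 3 and 17 without XWT 3, and the 1 higher gene became 0 without XKO 3 and 5 without XWT 3. The calls of Txndc11, Man1a and Man1c1 ended without XKO 1 or XKO 2, that of Man1c1 also without XKO 3, and that of Yod1 without XKO 3. Those of Selenok and Ubac2 ended without XWT 2 or any XKO library, and that of Ubac2 also without XWT 1. Herpud2, the paralog of Herpud1, was not called (-0.12 ± 0.082; edgeR adjusted p = 0.36), and was named after its values were seen. Of the 59 listed genes with a promoter window, 0 held ERSE or ERSE-II and 3 held the TGACGTGG core, namely Txndc11, Ube2j1 and Vcp.

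**Figure D4:**
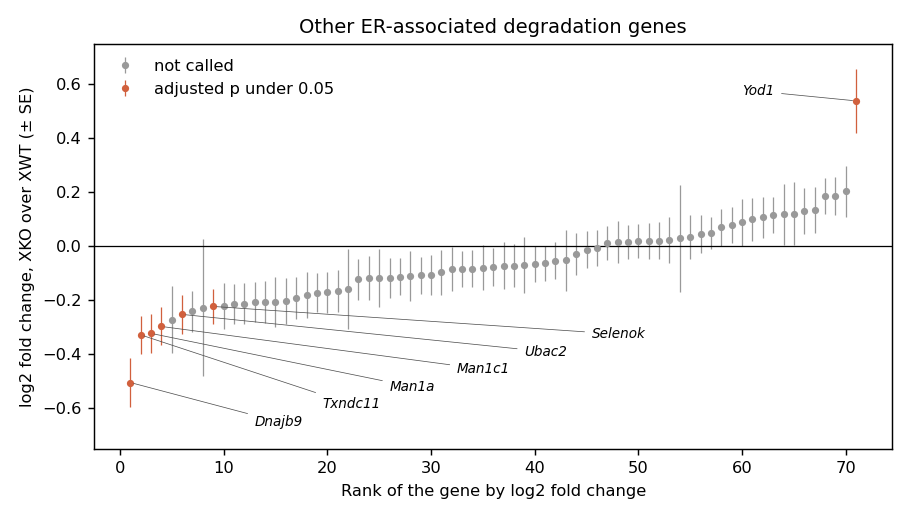
Log2 fold change of XKO over XWT (y axis, with SE) of the 71 tested genes of the wider list, ranked from lowest to highest (x axis). The 7 called genes are orange and named, from Dnajb9 at -0.50 to Yod1 at 0.54.

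Of 16 ER chaperone genes, 3 were called lower and 0 higher (18.8% and 0%, beside 7.99% and 6.00% of all genes; median log2 fold change -0.08, or -0.01 with library size alone). They were Dnajb9, counted above as well, Manf (-0.24 ± 0.068) and Cnpy2 (-0.26 ± 0.077), the last 2 not called with library size alone. That scaling instead called Hspa5 (0.19) and Hsp90b1 (0.28) higher (edgeR adjusted p = 0.0307 and 0.0340). With TMM scaling both also had log2 fold changes above 0 (0.12 ± 0.061 and 0.21 ± 0.077) but were not called (edgeR adjusted p = 0.19 and 0.0848). Hspa5 and Hsp90b1 were named after their values were seen. Among 16 regulators of the unfolded protein response, 5 were called lower and 2 higher (31.2% and 12.5%, beside the same 7.99% and 6.00%). The 5 include Xbp1, the gene targeted in XKO, so the share is not one of untargeted genes alone. The lower ones were Xbp1, the membrane-bound factors Creb3l2 (-0.73 ± 0.083), Creb3 (-0.27 ± 0.073) and Creb3l1 (-0.49 ± 0.135), and the gene of the stress sensor PERK, Eif2ak3 (-0.27 ± 0.078), which the naming rule does not reach and which was named after its values were seen. Ddit3 (0.67 ± 0.079) and Atf4 (0.38 ± 0.060), transcription factors downstream of PERK, were higher (edgeR, adjusted p under 0.05). Creb3, Creb3l1 and Eif2ak3 were not called with library size alone. Manf, Cnpy2, Creb3, Creb3l1 and Eif2ak3 also lost their calls without XWT 2 or any XKO library, and Manf, Creb3l1 and Eif2ak3 without XWT 1, whereas Xbp1, Creb3l2, Ddit3 and Atf4 were called in every setting tried. These lists were chosen with earlier results of these data known, and they were not tested against the 10 members.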

How the data were processed

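RNA was sequenced from 3 XWT and 3 XKO samples, grouped by their titles. Trizol RNA (1 ug) went into NEBNext Ultra libraries, per the labels' protocols. Bowtie 0.12.2 and the builds mm8 and mm10 are listed without a role in the submitters' processing notes; the sources used here do not give the counter, the annotation release or the strand setting. The members' coordinates are those of the table and equal GENCODE M21 (GRCm38).

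The authors deposited whole-number read counts per gene and FPKM (scaled by gene length and library total), per the file headers. Group means on a scaled signal, not used here, were deposited too, as were a log2 fold change and its p-value, raw and adjusted.

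Counts were tested on the whole table with edgeR 4.0.16 in R 4.3.3 (filterByExpr, 14333 of 54532 genes kept; TMM; robust quasi-likelihood fit; 4 residual degrees of freedom; Benjamini-Hochberg over all tested genes, threshold 0.05). Standard errors are the log2 fold change over the square root of F, and 95% intervals use the fit's total degrees of freedom. CPM are TMM-scaled. The fit was tested on simulated data. Depths were 28354866 to 30891729 counts, and the 95% intervals give the precision for each member. Named genes were all 10 members, Xbp1, up to 8 called genes in each direction of the wider list and up to 4 in each direction of the chaperones and regulators. The lists and members were chosen with earlier results of these data known. Of 76 listed other genes 75 are in the table. Ddit3 has more than one ID, and the one with more counts was used. Alternatives were other scalings, filters and thresholds, DESeq2 1.42.0, limma-voom (limma 3.58.1), a replicate block and leaving out each library.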

Additional observations from a re-analysis of the deposited data

How the results depend on the processing

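Herpud1 was called lower, and no member higher, in each of 16 alternatives, of which 2 were the same fit read at another threshold. The count of lower members became 2, with Derl1 added, under limma-voom with sample quality weights, at an adjusted p under 0.1 and without XWT 3; leaving out 1 library gave 1 to 2. Os9, not called, changed sign to 0.043 with library size alone, and with 1 library left out it ranged from -0.074 to 0.0081, positive without XWT 2. Among the wider list, lower genes numbered 10 with quality weights, 2 at an adjusted p under 0.01 and 12 under 0.1, and 1 to 17 with 1 library left out; higher genes numbered 3 with library size alone, 3 at an adjusted p under 0.1, and 0 to 5 with 1 library left out. Over all genes (860 higher, 1145 lower), 262 were higher and 544 lower at an adjusted p under 0.01, 1452 and 1712 under 0.1, and 749 lower with library size alone; with 1 library left out 274 to 2073 were higher and 532 to 2164 lower, the most without XWT 3. Leaving out a library also lowers the degrees of freedom. With no filter 2834 genes were called, against 2005.

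The replicate numbers are shared by the groups, but deviations of same-numbered libraries correlated at -0.04, -0.04 and -0.05 across genes, and no library correlated best with its own number. With the number as a replicate block, Herpud1 stood at -0.64 (edgeR adjusted p = 2.51e-06), the members had 1 lower and 0 higher call, the wider list 6 lower and 1 higher, and all genes 1127 lower and 1068 higher. Selenok was not called with the block.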
